A study of Pimephales promelas with 27 samples.

Results

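Ovary explants of the fathead minnow (Pimephales promelas), pieces of ovary kept in culture, were compared after 12 h with DHT and after 12 h without it. The comparison rests on the 4 arrays titled DHT12 and the 4 titled CON12, 8 of the 27 arrays of the series, and each array held the RNA of 1 sample of a female's ovary. The 4 DHT samples are labelled with DHT (dihydrotestosterone) as agent. The treatment protocol gives an incubation at 1e-06 M without naming the agent, which is taken here as the DHT dose, and the 4 control samples of 12 h carry only the label control, with no medium or solvent named. The other arrays hold explants of 6 h (4 control, 5 DHT) and 9 h (5 control, 5 DHT), which enter here through the shared estimate of each probe's spread and as the earlier times of the same contrast. Whether each sample is a fish of its own is not in the labels, and the p-values then measure only the spread between these samples, which may be technical. An explant holds oocytes with the follicle cells around them, and in such a mixed tissue fewer cells of a type and less RNA per cell cannot be told apart.

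DHT is an androgen that aromatase cannot convert to an oestrogen. It enters cells and binds the androgen receptor, a transcription factor, which then acts on the RNA output of its target genes over hours. The fathead minnow is a small fish widely used to test chemicals that act on hormone systems, and the ovary of a fish makes androgens itself, as precursors of oestradiol in the follicle cells. The files name each probe by an ID with a contig or sequence number, and of those names 0 matched the 64593 entries of the reference gene table used here, so that no probe is given a gene and no list of androgen, steroid or cell type genes could be read, nor the ovary label checked against its markers.

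After 12 h, no probe passed the test between DHT and control explants. limma called 0 of 13714 tested probes at an adjusted p under 0.05 (percent called 0), and the smallest adjusted p was 1.00. Without adjustment, 381 probes had a p under 0.05, 2.78% of those tested, with DHT higher in 154 (1.12%) and lower in 227 (1.66%). Levels here are log2 processed signals minus the log2 of the 75th percentile of the same array, so that a level of 0 is the 75th percentile, and a difference is the mean of the DHT levels minus the mean of the control levels. The median difference over all tested probes was -0.02, with quartiles of -0.21 and 0.18. The probes as a whole lay at the same relative level in both arms to within 0.02 on the log2 scale, while the SD of the median of an array between samples of an arm was 0.12. The scaling of each array to its own 75th percentile largely sets this, so it cannot show whether the amount of RNA was alike.

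What the 8 arrays could show depended on the level of a probe. The 95% interval of the difference left out a 2-fold change in both directions for 57.3% of the 13714 probes. It did so for 89.7% of the 3651 probes with a mean level above 0, and for 16.7% of the 2301 probes below -6. The median half-width of the interval was 0.41 among the brightest probes, 0.67 over all and 1.1 among the dimmest. A 2-fold difference was thus outside the interval for most bright probes and, in at least 1 direction, inside it for most dim ones. The share of probes with a measured difference over 2-fold ran the same way, from 0.466% above 0 to 1.56%, 2.11% and 3.90% in the bins downwards and 10.4% below -6, where 9.43% of the probes were well above background on all 8 arrays.

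Over all tested probes, 457 differed by more than 2-fold (3.33%), 264 higher (1.93%) and 193 lower with DHT (1.41%), and 325 had arms that did not overlap (2.37%). The first count was 95 among the 11247 that were well above background on all 8 arrays (0.845%), 49 higher with DHT (0.436%) and 46 lower (0.409%). Of these 11247 probes, 277 had 4 DHT levels that did not overlap the 4 control levels (2.46%), 81 with DHT higher (0.72%) and 196 with DHT lower (1.74%). For any probe, a share of 0.0286 of the 70 ways to split 8 arrays 4 against 4 gives no overlap. The 2.37% and 2.46% here lie below that share. Only 10 probes were both over 2-fold and without overlap (0.0889%), 3 higher (0.0267%) and 7 lower (0.0622%). Lower probes thus made up the larger part of those without overlap in this scaling, with 29.2% of them higher. That split moved with the scaling. Under median scaling 133 were higher and 167 lower (44.3% higher), and after normexp background correction with quantile normalization 136 and 206 (39.8% higher). After quantile normalization alone it was 109 and 214 (33.7% higher), and in the deposited values 95 and 233 (29.0% higher). Lower probes were the larger part each time. Among probes with an unadjusted p under 0.05 by limma the split was 154 higher and 227 lower as scaled here (40.4% higher). The higher share was 46.0% after quantile normalization, 44.4% after normexp and 45.3% in the deposited values. Only median scaling put more probes on the higher side, with 212 higher and 180 lower (54.1% higher). 

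The probes described next were well above background on all 8 arrays and had no overlap between the arms. A difference of the same sign on slides 5 and 7, the slides that held both arms, was also required. Arms without overlap always give that, so the sign within the slides is no further evidence. The probes are the 10 of smallest p in each direction, followed by the 3 of largest difference. The choice used these values, so the levels are a description, and the limma adjusted p of each was 1.00.

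Among the probes lower with DHT, the difference of the 10 ranged from -1.57 to -0.45 (SE 0.14 to 0.38, unadjusted p 0.000255 to 0.00712). The probe of smallest p, UF_Ppr_AF_109091, stood at -3.01, -2.69, -2.67 and -3.04 in controls 1 to 4 and at -3.89, -4.12, -3.80 and -3.93 in DHT samples 1 to 4. The arms were separated by a gap of 0.76, wider than the range of either arm, and the control signal was 2.12-fold that with DHT (95% interval of the log2 difference -1.60 to -0.56). UF_Ppr_AM_119600 had control levels of -3.09, -3.68, -2.74 and -3.25 and DHT levels of -4.26, -4.67, -4.44 and -4.63. All DHT samples lay below all controls, by a difference of -1.31 (SE 0.31) or 2.48-fold, and the differences within slides 5 and 7 were -1.38 and -1.54. Left-out arrays and other values kept the difference of UF_Ppr_AM_119600 between -1.496 and -1.03 and that of UF_Ppr_AF_109091 between -1.15 and -0.86.

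UF_Ppr_AF_117765 had the largest difference of the 10, at -1.57 (SE 0.38), with control levels of -5.35, -4.23, -3.88 and -4.10 and DHT levels of -6.03, -6.22, -5.69 and -5.91. Control 1 stood apart from the other controls and close to the DHT samples, on the same dim slide 5 where the difference was -0.77, against -1.81 on slide 7. After normexp the difference was -0.73. The dim probes of this group shared that shrinking. Normexp gave UF_Ppr_AF_109825 a difference of -0.58 in place of -1.16, UF_Ppr_AF_105258 one of -0.41 in place of -0.997, UF_Ppr_AF_106647 one of -0.39 in place of -0.81, UF_Ppr_AF_109231 one of -0.21 in place of -0.68 and UF_Ppr_AF_103774 one of -0.34 in place of -0.57. In each of the 5 the DHT samples stayed below the controls in the mean, but the size depended on the processing. The normexp values also had an offset of 50 added, which by itself makes the log2 differences of dim probes smaller, and quantile normalization. The parts of background removal, offset and normalization were not told apart.

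The brightest signal among those lower was that of UF_Ppr_AF_110630, at 1.05, 0.89, 0.76 and 1.09 in controls and 0.29, 0.34, 0.65 and 0.68 with DHT, a difference of -0.45 (SE 0.14) or 1.37-fold. DHT 1 and 2, both on slide 5, were the lowest 2, and the difference was -0.73 on slide 5 and -0.26 on slide 7. With slides 6 and 7 alone it was -0.25. UF_Ppr_AF_113771 was at -0.58, -1.10, -1.37 and -1.27 in controls and -1.42, -2.03, -1.70 and -1.98 with DHT, a difference of -0.70 (SE 0.21). Its control 3 and DHT 1 were 0.05 apart across the arms. Slide 5 gave UF_Ppr_AF_113771 a difference of -1.15 and slide 7 one of -0.52.

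**Figure D1:**
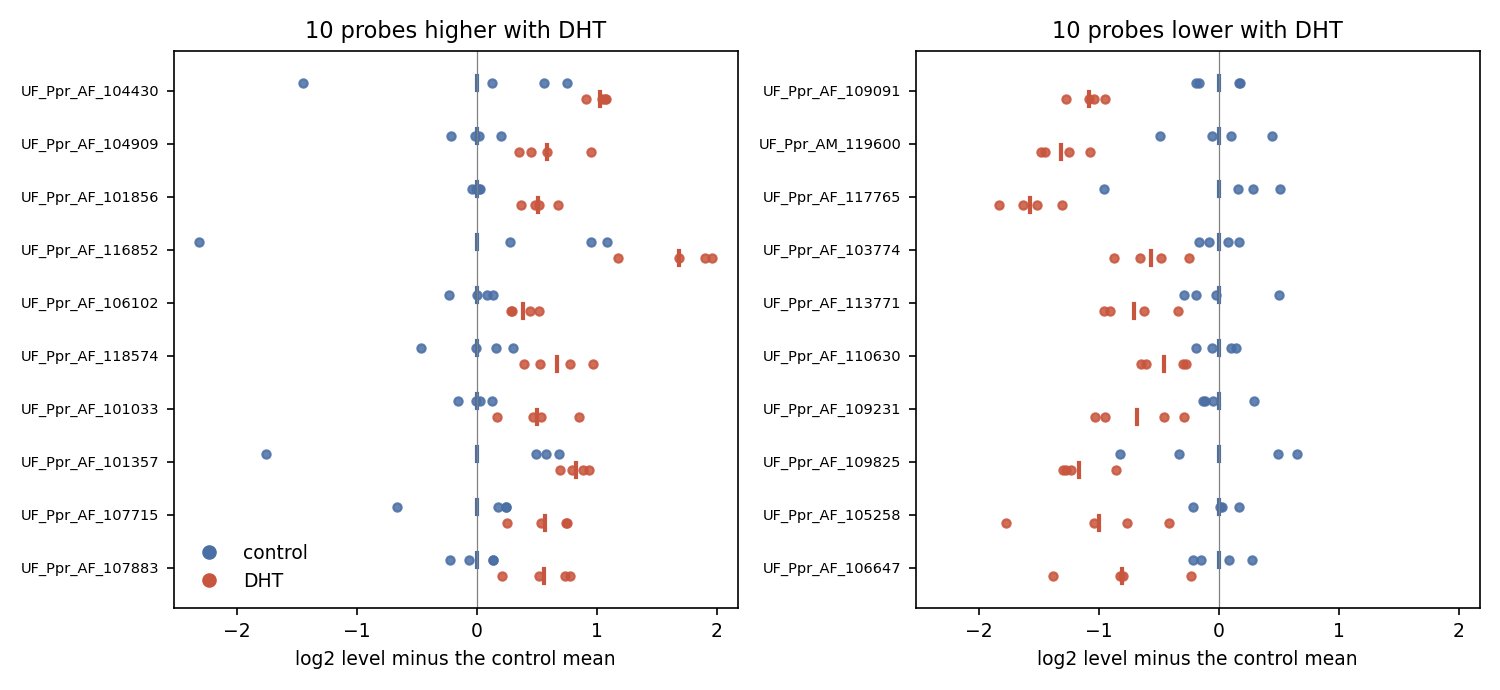
Levels of the 20 probes of smallest p on each of the 8 arrays, as log2 level minus the mean of the 4 controls (x axis), with 1 row per probe. Points are arrays (control upper, DHT lower in each row) and short bars the means of 4. UF_Ppr_AF_109091 has tight arms 1.08 apart, while UF_Ppr_AF_104430, UF_Ppr_AF_116852 and UF_Ppr_AF_101357 each have 1 control far below the other 3.

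Among the probes higher with DHT, the difference of the 10 ranged from 0.39 to 1.68 (SE 0.15 to 0.65, unadjusted p 0.0111 to 0.0282). In UF_Ppr_AF_101856 the controls were at -2.23, -2.16, -2.19 and -2.17 and the DHT samples at -1.67, -1.71, -1.82 and -1.51. The controls lay within 0.07 of each other with every DHT sample above them, a difference of 0.51 (SE 0.19) or 1.43-fold, with 0.54 on slide 5 and 0.52 on slide 7. UF_Ppr_AF_104909 stood at -2.43, -2.63, -2.40 and -2.22 in controls and at -2.07, -1.47, -1.84 and -1.96 with DHT. Its difference was 0.59 (SE 0.21) or 1.501-fold, and it was 0.66 on slide 5 and 0.41 on slide 7. Left-out arrays and other values kept UF_Ppr_AF_101856 between 0.46 and 0.64 and UF_Ppr_AF_104909 between 0.46 and 0.67. UF_Ppr_AF_107883 was 0.56 higher (SE 0.24), and 0.34 after normexp.

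UF_Ppr_AF_118574 was at 0.55, 0.09, 0.71 and 0.86 in controls and 0.95, 1.33, 1.53 and 1.08 with DHT, a difference of 0.67 (SE 0.27). UF_Ppr_AF_101033 was at 2.09, 2.13, 1.94 and 2.22 in controls and 2.26, 2.95, 2.57 and 2.63 with DHT, a difference of 0.51 (SE 0.21). Both gave signals above the 75th percentile of the array with every DHT sample above every control, and both held their size within the slides, at 0.59 and 0.52 for UF_Ppr_AF_118574 and 0.52 and 0.51 for UF_Ppr_AF_101033. The brightest signal of the group, that of UF_Ppr_AF_106102, stood at 5.59, 5.36, 5.68 and 5.72 in controls and 6.10, 6.03, 5.89 and 5.87 with DHT. Its difference of 0.39 (SE 0.15) was 0.17 after quantile normalization, 0.15 after normexp and 0.15 in the deposited values.

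In 4 other members of the group the size rested on 1 control. UF_Ppr_AF_104430 was at -3.46, -5.03, -3.02 and -2.83 in controls and -2.54, -2.51, -2.50 and -2.68 with DHT, and its difference of 1.03 (SE 0.37) was 0.55 without control 2. UF_Ppr_AF_116852 was at -1.48, -1.35, -2.16 and -4.75 in controls and -0.75, -1.26, -0.47 and -0.53 with DHT, and its difference of 1.68 (SE 0.65) was 0.91 without control 4. In both, 1 control lay far below the other 3, and DHT samples were above the rest of the controls by less. UF_Ppr_AF_101357, with control 2 at -0.12 and the other controls between 2.13 and 2.32, differed by 0.83 (SE 0.34) and by 0.24 without that array. Without control 2, UF_Ppr_AF_107715 differed by 0.35 in place of 0.57.

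By size, UF_Ppr_AF_107251 joined the higher probes, with control levels of -5.43, -6.64, -6.26 and -6.06 and DHT levels of -4.96, -4.68, -4.96 and -5.26. All DHT samples were above all controls, but the spread of this probe in the other groups left its difference of 1.13 with an SE of 0.62 (interval -0.14 to 2.41), and normexp gave 0.54. UF_Ppr_AF_110160 joined the lower probes through 1 array. Its control 3 stood at -1.94 and the other controls between -5.97 and -5.85, so that the difference of -1.33 (SE 0.67) was -0.34 without control 3. Of probes named in earlier work on these data, UF_Ppr_AF_105636 and UF_Ppr_AF_113336 had the smallest p of all tested probes higher with DHT, yet their arms overlapped. In UF_Ppr_AF_105636 control 4 (-5.47) was above DHT 3 (-5.49), and in UF_Ppr_AF_113336 control 3 (0.50) was above DHT 1 (0.43). UF_Ppr_AF_117085 was well above background on 1 of 4 DHT and 3 of 4 control arrays, and with all levels raised to at least -6.95, the highest detection limit of the 8 arrays, its difference was -1.16. Its control 4 stood at -3.89 and the other controls between -6.82 and -5.98, and after normexp the difference was -0.50.

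The 8 arrays lay on 3 slides. Slide 5 held control 1 with DHT 1 and 2, slide 6 held control 2 alone of the 12 h arrays, and slide 7 held controls 3 and 4 with DHT 3 and 4. Slide 5 was scanned on one day and slides 6 and 7 on another, so that slide 5 and its scan day cannot be told apart. All 4 controls sat in the same column of their slides, and 3 of the 4 DHT samples in the other one, with DHT 2 in the column of the controls. Slide position and agent are thus largely the same split, and the part of position was not tested.

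Over all 13714 tested probes, slides differed by more than the arm means did over all 8 arrays. The median absolute difference between slide 7 and slide 5, each the mean of its arrays, was 0.27, against 0.19 between DHT and control. Between the slides 1101 probes differed by over 2-fold, against 457 between the arms. The slide values rest on 3 and 4 arrays and the arm values on 4 and 4. Slide 5 held more DHT than control arrays, so the slide values are partly mixed with the difference between the arms. Within slides, the median absolute difference between the arms was 0.28 on slide 5 and 0.22 on slide 7. These 2 values rest on fewer arrays and only on the 11247 probes well above background on all 8 arrays. They are thus not on the same probes as the 0.27 and 0.19. Among the 11247 probes well above background on all 8 arrays, 496 differed by over 2-fold between DHT and control on slide 5 and 408 on slide 7. Both slides shared 105 of these probes, but only 13 had the same sign on both (6 higher, 7 lower), which is 2.62% of the probes of slide 5 and 3.19% of those of slide 7, and 92 had opposite signs. The differences of the 2 slides had a Pearson r of -0.07 over these probes (a description across probes, which share arrays and are not independent). It was -0.11 after quantile normalization, -0.09 after normexp and -0.10 in the deposited values. Of the 496 probes of slide 5, 210 had the same sign on slide 7 at any size (42.3%), and of the 408 of slide 7, 139 had it on slide 5 (34.1%), against 55.7% of all 11247.

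**Figure D2:**
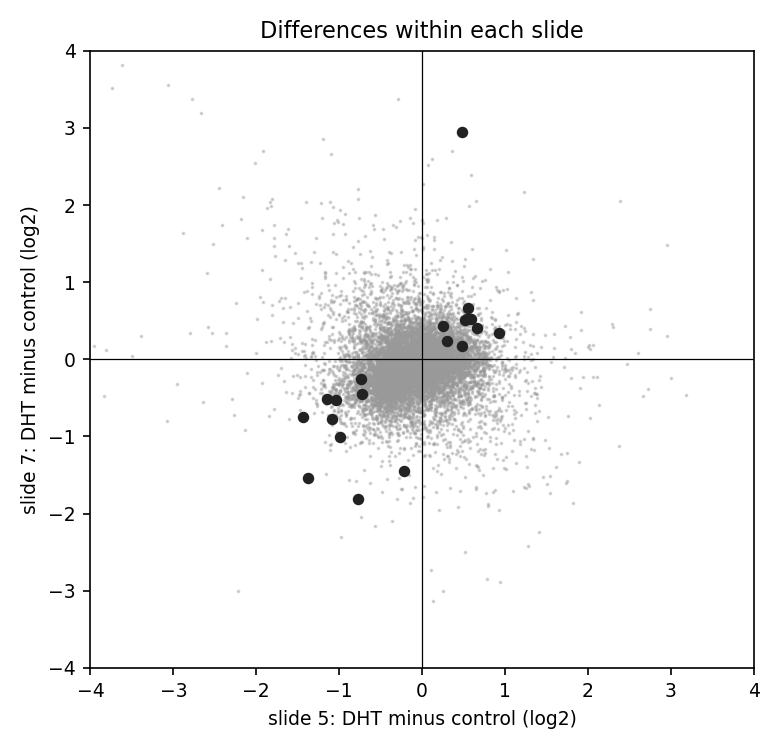
Difference between DHT and control (log2) within slide 5 (x axis, 1 control and 2 DHT arrays) against that within slide 7 (y axis, 2 arrays of each arm), for the 11247 probes well above background on all 8 arrays. Black points are the 20 probes of smallest p, chosen for arms without overlap, which fixes 1 sign on both slides. The grey cloud shows the 92 probes over 2-fold with opposite signs mainly at upper left and lower right, against 13 with the same sign.

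The opposite signs went with 2 arrays that were alike. Control 3, on slide 7, and DHT 2, on slide 5, differed by a median of 0.23 over the tested probes and lay in opposite arms on the 2 slides. Without these 2 arrays, slide 5 was left with 1 array of each arm and slide 7 with control 4 against DHT 3 and 4, and r between the slides was 0.16. The share of probes with the same sign on both slides was then 60.1%. Of 16 probes over 2-fold on both slides, 10 had the same sign (9 higher, 1 lower) and 6 the opposite one.

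Control 3 and DHT 2 were 1 of 3 such pairs. A control and a DHT array were taken as a pair where each was the other's best correlated partner in the opposite arm over the 500 most variable probes, which gave control 1 with DHT 1 (r 0.67), control 3 with DHT 2 (0.58) and control 4 with DHT 4 (0.32). Over all tested probes r was 0.60, 0.54 and 0.40, as descriptions across probes. The median absolute difference within a pair was 0.22, 0.23 and 0.21 in that order. The 12 comparisons of arrays within an arm gave 0.31 to 0.55 (median 0.41), and the other 13 comparisons of a control with a DHT array 0.34 to 0.50 (median 0.43). Each pair was thus closer than any 2 samples of 1 treatment, on values that also chose the pairs. Control 2 and DHT 3 had no such partner. The labels say nothing of a shared fish, or of a batch beyond the slide, for these arrays, and the pairs were read from the data. Control 1 and DHT 1 lay side by side on slide 5, and control 4 and DHT 4 on slide 7. Each of these pairs thus also shared a slide and a scan day. Control 3 and DHT 2 lay on different slides with different scan days. The part of the slide in the likeness of the pairs was not tested.

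**Figure D3:**
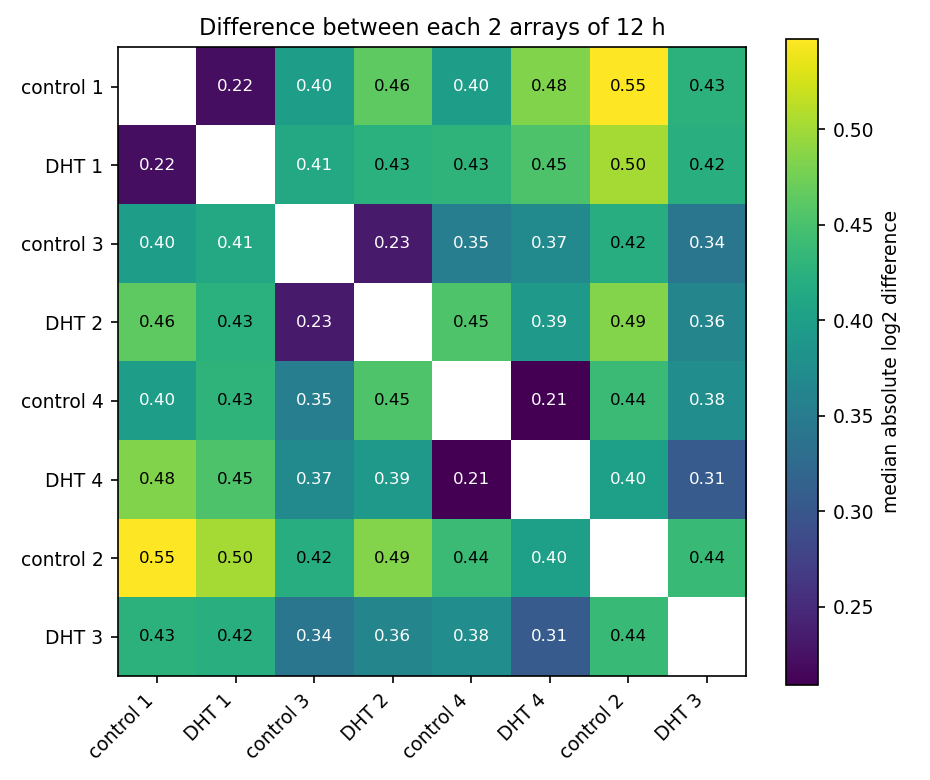
Median absolute log2 difference over the 13714 tested probes between each 2 of the 8 arrays of 12 h (rows and columns), with the value in each cell and darker cells for more similar arrays. The inferred pairs come first in order and form 3 dark cells at 0.22, 0.23 and 0.21, where all other cells are 0.31 or more.

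Within the pairs, differences between DHT and control were more alike than within the slides, but the pairs were chosen by likeness on these same values. How far that choice made the differences alike was not tested. The pairs share no array, and their differences had r of 0.27, 0.24 and 0.33 between each 2 of them. Of the 11247 probes, 5255 (46.7%) had 1 sign in all 3 pairs. Only 4 differed by over 2-fold one way in all 3 (0.0356%), 3 higher and 1 lower, and they were chosen after their values were seen. UF_Ppr_AM_119600, described above, was the lower one, with -1.18, -1.92 and -1.39.

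UF_Ppr_AF_111085 was higher with DHT by 2.09, 2.82 and 2.04 in the 3 pairs, and DHT 3 was above control 2, the arrays outside the pairs, by 2.23. Its levels were -2.28, -2.57, -2.40 and -4.77 in controls and -0.19, 0.42, -0.34 and -2.72 with DHT. The arms overlapped, since both members of the pair of control 4 and DHT 4 stood low, and the difference of the means was 2.30 (SE 0.87, limma unadjusted p = 0.0143, adjusted p = 1.00). UF_Ppr_AF_105401 differed by 1.16, 1.77 and 1.39 in the pairs and UF_Ppr_AF_109738 by 1.69, 1.93 and 3.92. Outside the pairs these 2 had the opposite sign, at -0.94 and -1.69.

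The number of probes that passed depended on whether and how the inferred pairs entered the fit. With the pair as a random block, limma called 243 of 12776 probes (1.9%), 39 higher (0.305%) and 204 lower (1.6%). The 12776 are the probes tested with only the 8 arrays of 12 h. On those arrays without the pairs, limma called 0, and 391 probes (3.06%) had an unadjusted p under 0.05. The fit without the pairs to all 27 arrays, over 13714 probes, also called 0. The consensus correlation within pairs was 0.83. The called differences were mostly under 2-fold, with a median of 1.54-fold for the higher probes and 1.49-fold for the lower. Of the 243, 18 were over 2-fold, where 3.33% of all 13714 probes were in the fit without the pairs. The median absolute difference of the 243 was 0.58, against 0.19 over all 13714 probes in the fit without the pairs. All 243 had 1 sign in the 3 pairs, against 46.7% of the 11247 probes. In 100 of them (41.2%) the arms did not overlap, against 2.37% of all 13714. These counts use the same arrays that made the calls and are a description. UF_Ppr_AF_109091 (-1.08, SE 0.11), UF_Ppr_AM_119600 (-1.46, SE 0.14), UF_Ppr_AF_101856 (0.56, SE 0.07) and UF_Ppr_AF_111085 (2.31, SE 0.30) were among them, each with a limma adjusted p of 0.031, the smallest reached. As a fixed block the same pairs gave 0 calls, with a smallest limma adjusted p of 0.245 and 2235 probes (17.5%) under 0.05 before adjustment, with DHT higher in 595 and lower in 1640. The pairs were picked for their likeness on the same values, and how far that choice lowered the spread behind these p-values was not tested. The labels do not give the pairs. DHT 3 minus control 2, which took no part in the pairs, had the sign of the pairs for 57.4% of 1968 probes with an unadjusted p under 0.05 in the fixed-block fit, against 53.1% of all 11247.

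The arrays were unevenly bright. The 75th percentile of the processed signal was 1096, 3020, 2028 and 3418 in controls 1 to 4 and 921, 1222, 2819 and 2918 in DHT samples 1 to 4, the series spanning 921 to 5709. The 3 arrays of slide 5 were the dimmest, and slide 7 was 2.56-fold brighter than slide 5. Slide 5 held 2 of 4 DHT samples and 1 of 4 controls. The controls were 1.25-fold brighter on average, at a log2 75th percentile of 11.10 ± 0.74 against 10.77 ± 0.84 (SD, n = 4 each). This difference of -0.33 was within the spread between arrays (exact two-sided permutation test, p = 0.571, the smallest possible p with 4 against 4 being 0.0286). Within slides it was -0.05 on slide 5 and 0.12 on slide 7, and the part of the slide in it was not tested.

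The share of probes well above background did not follow brightness. It was 85.5%, 81.5%, 86.6% and 81.4% in controls and 81.2%, 84.99%, 87.0% and 83.3% with DHT, or 83.8 ± 2.7 and 84.1 ± 2.5% (SD, n = 4 each, exact two-sided permutation test, p = 0.857). The dim control 1 had a larger share than the bright controls 2 and 4. No non-control spot was saturated. Against 6 spike-in probes, RNA added in known amounts, the 75th percentile was lower with DHT by 0.41 on the log2 scale, at -1.15 ± 0.29 against -0.73 ± 0.39 (SD, n = 4 each, exact two-sided permutation test, p = 0.114). That difference was -0.66 on slide 5 and -0.08 on slide 7.

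**Figure D4:**
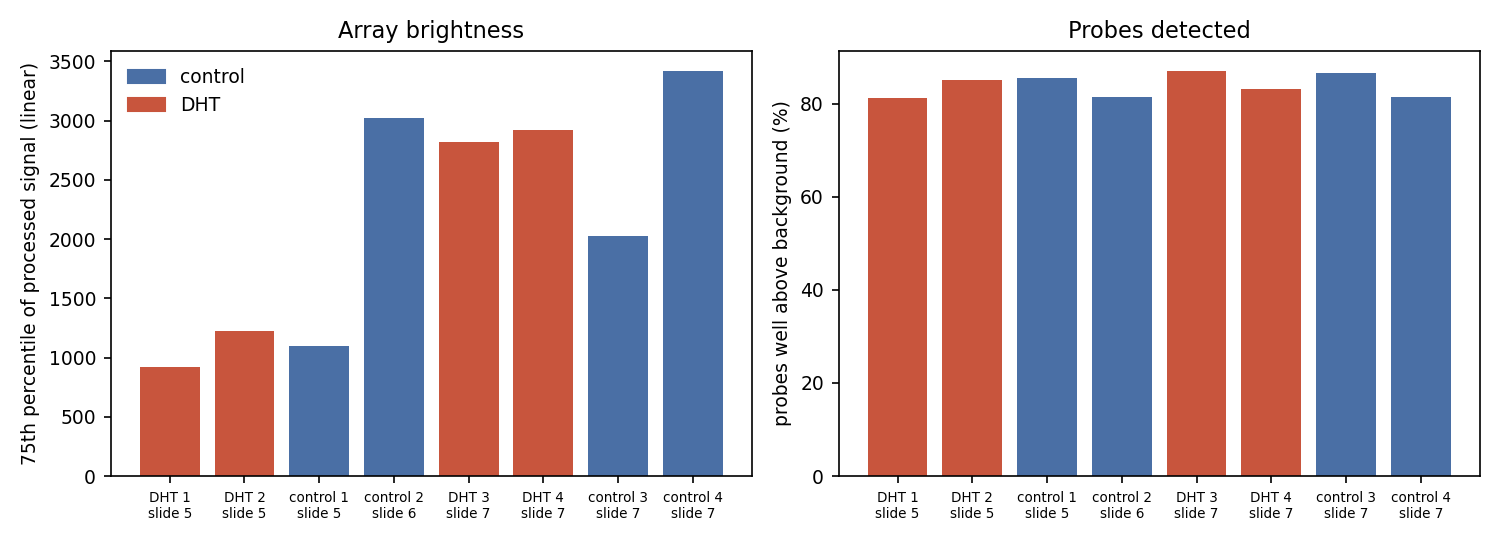
Brightness of the 8 arrays of 12 h as the 75th percentile of the processed signal (left, linear scale) and the share of non-control probes well above background in percent (right), 1 bar per array, coloured by arm and ordered by slide. The 3 arrays of slide 5 lie between 921 and 1222 and the other 5 between 2028 and 3418, while the shares lie between 81.2% and 87.0% on all 8.

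After scaling, the relative level of dim probes still differed between arrays. In the bin of mean level from -6 to -4 the median level of an array was -4.71 in control 1, -4.81 in DHT 1 and -4.94 in DHT 2, all on slide 5, and -5.21 in control 2 on slide 6. On slide 7 it was -4.90 and -5.08 in controls 3 and 4 and -5.03 and -5.19 in DHT 3 and 4. Within each slide the lowest array of this bin was a DHT sample where both arms were present, and control 2 was the lowest of all. Over the arms the median difference was -0.04 for this bin, -0.05 from -4 to -2, -0.02 from -2 to 0, and 0.00 in both the dimmest and the brightest bin. Within the inferred pairs it was below 0 in each pair in the 4 lower bins. From -6 to -4 it was -0.15, -0.03 and -0.18 in the 3 pairs, and from -4 to -2 it was -0.11, -0.03 and -0.15. DHT 3 minus control 2, outside the pairs, had the opposite sign, at 0.22 and 0.07 in these bins. Above 0 the medians of the pairs lay between -0.01 and 0.01. The shift of dim probes within pairs had the sign of the 204 lower calls, against 39 higher, and its part in them was not tested. Of the probes without overlap, 10 were higher and 49 lower from -6 to -4, 18 and 50 from -4 to -2, 15 and 33 from -2 to 0, and 38 and 53 above 0. Below -6 there were 0 higher and 11 lower. As a share of the probes well above background on all 8 arrays, those without overlap were 2.46% from -6 to -4, 2.47% from -4 to -2, 2.15% from -2 to 0 and 2.5% above 0. Below -6 they were 5.07% of 217 probes, against 2.46% over all bins.

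The median absolute difference at 12 h was close to that at 9 h, while more probes were over 2-fold at 12 h than at either earlier time. The median absolute difference was 0.12 at 6 h, 0.19 at 9 h and 0.19 at 12 h, and 216 (1.58%), 160 (1.17%) and 457 (3.33%) probes differed by over 2-fold. These widths come from 4 against 5, 5 against 5 and 4 against 4 arrays, and the difference between them was not tested. The effect of DHT at 12 h minus that at 6 h passed for 0 of 13714 probes by limma (percent called 0), with 83 at an unadjusted p under 0.05 (0.605%). At 12 h minus 9 h it passed for 0 (percent called 0), with 165 at an unadjusted p under 0.05 (1.2%).

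The times share no array. Over the 11247 probes, differences at 12 h had r of 0.20 with those at 6 h and 0.32 with those at 9 h, and over all 13714 probes 0.04 and 0.20, as descriptions across probes. Of the 95 probes over 2-fold at 12 h, 54 had the same sign at 6 h, 56 at 9 h and 35 at both. Over the 12776 probes of the fit with inferred pairs, 60.6% and 62.7% had the same sign at 6 and 9 h. Those shares take the 12 h sign from that fit, and the 95 take it from the fit without the pairs. The probes also differ, so the 2 cannot be compared directly. At 6 and 9 h, 4 and 3 of the 95 were also over 2-fold with that sign. Over all 13714 probes, 1.58% and 1.17% were over 2-fold in either direction at these times. Most of the 95 were thus not over 2-fold at 6 or 9 h, as most probes were not. The 10 probes lower with DHT had a median difference of -0.90 at 12 h, -0.08 at 6 h and -0.05 at 9 h, and the 10 higher ones 0.58, 0.05 and 0.00. None of the 20 reached an unadjusted p under 0.05 at 6 or 9 h by limma. Of the 12776 probes of the fit with inferred pairs, 0.352% and 2.46% did. A count of none among 20 is near those shares.

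UF_Ppr_AM_119600 differed by 0.03 at 6 h and -0.11 at 9 h, and UF_Ppr_AF_109091 by -0.20 and 0.12. Both separated the arms at 12 h and had differences within 1 SE of 0 at the earlier times. The difference of UF_Ppr_AF_107883 was 0.28, 0.31 and 0.56 at 6, 9 and 12 h, that of UF_Ppr_AF_107251 was 1.17 (SE 0.59), 0.65 and 1.13, and that of UF_Ppr_AF_111085 was 1.24 (SE 0.82), 0.76 (SE 0.78) and 2.30. These 3 had DHT higher at each time. For UF_Ppr_AF_107883 the SE was 0.23 at 6 h and 0.21 at 9 h. Of the 10 higher probes of smallest p, 4 kept their sign at both 6 and 9 h, and of the 10 lower ones, 5 did. Of the 243 probes called with the inferred pairs, 212 (87.2%) had the same sign at 6 h and 200 (82.3%) at 9 h. Over all 12776 probes of that fit the shares were 60.6% and 62.7%. At 6 h 1 of the 243 had an unadjusted p under 0.05 by limma (0.412%), against 45 of the 12776 (0.352%), and at 9 h 17 did (7%), against 314 (2.46%). Most of the 243 were lower with DHT at 12 h (84%), and 76.1% and 75.3% were lower at 6 and 9 h, against 54.3% and 51.9% of all probes of that fit.

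**Figure D5:**
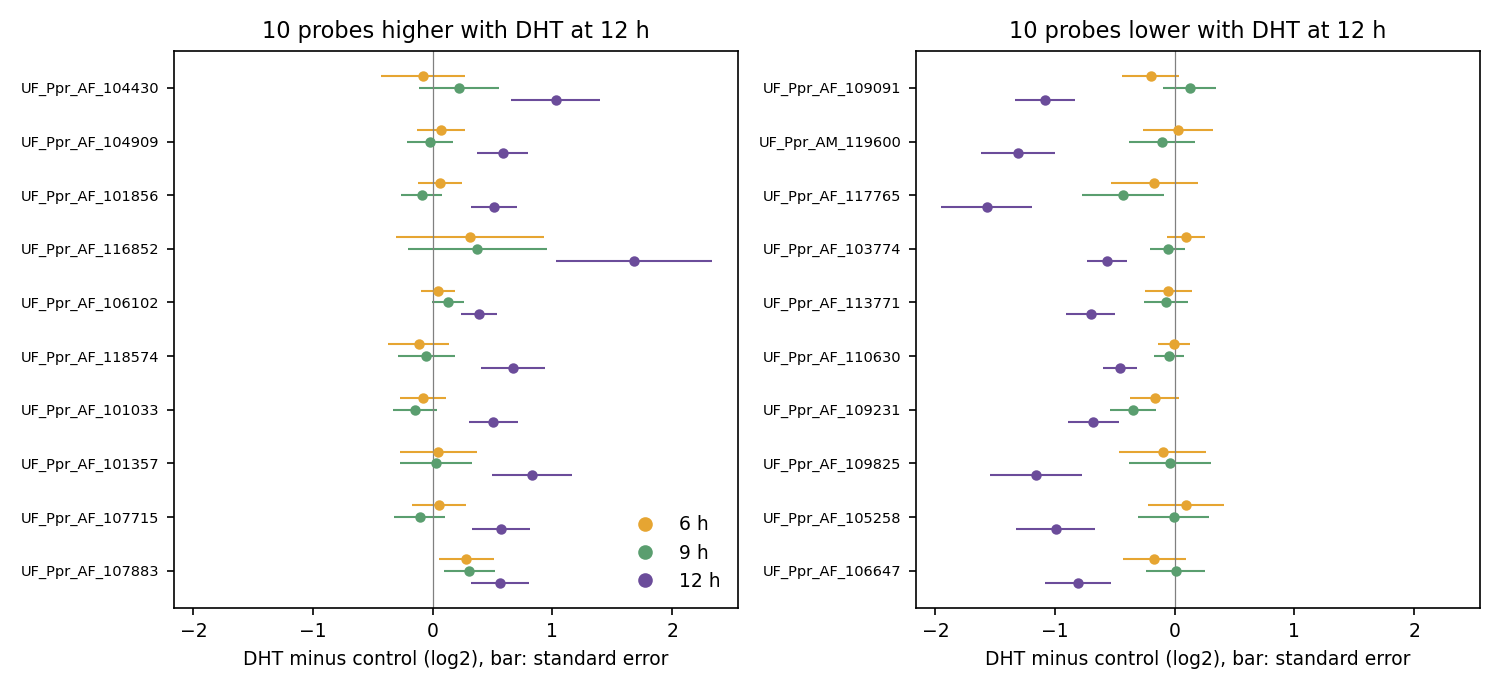
Difference between DHT and control (log2, x axis) at 6, 9 and 12 h for the 20 probes of smallest p at 12 h, with 1 row per probe, points for the difference and bars for its standard error. The 12 h points lie away from 0 because they chose the probes, and the 6 and 9 h points lie between -0.43 and 0.37.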

How the data were processed

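RNA of 27 explant samples was measured on Agilent arrays of 1 colour (Cy3). The scanner output deposited by the authors was made with Agilent Feature Extraction 10.7.1.1, per the file headers. It gives each spot a processed signal, a linear intensity with background subtracted, the median intensity of spot and local background, and other columns, the deposited 0 or 1 flags. The authors also deposited log2 values, whose normalization and centring are not given in the sources used here. Set against the log2 processed signals array by array, they had an r of at least 0.998 across probes.

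Of 15744 spots, 536 were controls. Of the 15208 probes, 169 were left out for an outlier flag (uniformity or population) on at least 1 array. Another filter left out 1333 that were well above background on fewer than 4 of the 27 arrays, a set that overlaps the first in part, which left 13714. limma 3.58.1 (R 4.3.3) fitted 6 group means to the 27 arrays, with Benjamini-Hochberg adjustment over all tested probes. Intervals are at 95%. Groups were the agent and time of the labels. Replicate numbers follow the deposited order and pair nothing. The model was tested on simulated data. The number of arrays limits the precision.

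Named probes were those called, the 10 of smallest p in each direction among probes well above background on all 8 arrays, with no overlap of the arms and 1 sign on slides 5 and 7, the 3 of largest difference among them, and 4 named in earlier work. Arms without overlap have 1 sign on both slides, so the slide condition left out no further probe. The probes, lists and rules were chosen with earlier results of these data known. The planned gene and cell type lists could not be run, since no probe has a gene here. Other values tried were quantile normalization, normexp on the median signal (offset 50, as the planned mean signal was not used here) with quantile normalization, the deposited values, median scaling, other filters, slide, scan day, brightness, array weights, inferred pairs and leaving out each array. Python 3.11.15 with matplotlib 3.10.9 and numpy 2.4.6 drew the figures.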

Additional observations from a re-analysis of the deposited data

Results flagged for a closer look

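In 4 of the 54 groups of 4 arrays checked, 1 array lay far from the other 3 by Dixon's ratio, and chance gives about 1 in 20. UF_Ppr_AF_101357 was at -0.12 in control 2, where the other controls were at 2.13 to 2.32. UF_Ppr_AF_107715 was at -3.82 in control 2 and -2.98 to -2.91 in the others. UF_Ppr_AF_110160 was at -1.94 in control 3 and -5.97 to -5.85 in the others. UF_Ppr_AF_109825 was at -5.43 in DHT 2 and -5.88 to -5.81 in the others. Control 2 was the sole 12 h array on slide 6 and had the lowest array weight of the 8 (0.64), and control 3 had a weight of 1.58. The part of the slide in these values was not tested.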

How the results depend on the processing

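The count of 0 probes called at 12 h was found by limma under each alternative tried except 1. With the inferred pairs as a random block, limma called 243. On the labels alone, no paired analysis was possible because they give no replicate numbers or shared source. The pairs used as a block were read from the data. At an unadjusted p under 0.05 there were 381 probes in the reported fit, 685 after normexp, 618 with array weights, 737 on slides 5 and 7 with slide as a block, 2235 with the inferred pairs as a fixed block and 2861 with them as a random block. The other alternatives gave between 275 (with the filter on dim probes at all 8 arrays) and 550 (without DHT 1). The smallest limma adjusted p without the pairs was 0.19, without DHT 3, then 0.382 after normexp and 0.388 with array weights. Of 624 differences of the 25 named probes under the alternatives, 0 changed sign and 13 passed the threshold, those 13 all with the inferred pairs as a random block. All but those named only in earlier work were chosen for arms without overlap and 1 sign on slides 5 and 7. For them, leaving out an array or keeping to these slides could not reverse the sign. The count of 0 was thus in part set by that choice. The contrasts between times gave 0 calls under each alternative in which they were run. They were not run with the inferred pairs, median scaling, scan day or the common lower limit. Nor were they run on subsets of slides, on the 8 arrays of 12 h alone or with the filter at all 8 arrays. The median difference over all probes lay between -0.05 and 0.02 over the scalings and left-out arrays, and with the median as measure of brightness the controls were brighter by 0.37 on the log2 scale (exact two-sided permutation test, p = 0.429). Scan day and the fixed block of pairs, the common lower limit and slides 6 and 7 alone were added after seeing the data. Signal close to background limits the dim probes, where normexp with its added offset of 50 gave smaller differences.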
